A study of Mus musculus with 2 samples.

Results

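The genes described here are 10 mouse enzymes that convert steroids and fatty acyl groups at hydroxyl, keto or double-bond positions: Hsd11b1, Hsd11b2 and H6pd, the hydroxysteroid (17-beta) dehydrogenase family members Hsd17b4, Hsd17b8, Hsd17b10, Hsd17b11 and Hsd17b12, and the 5-alpha-reductases Srd5a1 and Srd5a2. They were chosen by name, and all transcript classes of each gene were kept. Of the 10 genes, 9 were found under their own name. Hsd17b8 was found through a RefSeq synonym as H2-Ke6, the name used in the deposited files. The 10 genes are among 16910 annotated nuclear genes with a read, and they held 134 of 109859 transcript models in replicate 1 and 81 of 58646 in replicate 2.

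RNA of adrenal glands was read as long molecules, so that 1 read covers most or all of 1 transcript. Both libraries came from female mice aged 2 months of the strain labelled B6CASTF1/J, a first-generation hybrid of C57BL/6J and CAST/EiJ mice, whereas the mm10 reference is C57BL/6J sequence. They form 1 group with no treatment and no second condition, and the labels call them biological replicates 1 and 2. The biosample labels number the animals 3 and 4, but both library labels carry the number 3 and both samples carry the same donor identifier, so every p-value below measures the difference between 2 libraries, which may be technical.

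Replicate 1 held 1209457 reads of annotated nuclear genes and replicate 2 held 502655. Counts were scaled to these totals as CPM, the field's unit of reads per 1e6 reads. A floor of 3 reads stands for 2.48 CPM in the deeper and 5.97 CPM in the shallower library. Genes that define the steroid-making cortex were abundant in both libraries, at a summed 63604 and 83039 CPM for 7 of 7 markers. The 8 markers of the chromaffin cells of the medulla had a sum of 12563 CPM in the first library and 7761 in the second, and the 10 adipocyte markers to 8802 and 9587 CPM. RNA of medulla and fat was thus read beside that of cortex. Markers of endothelium (601 and 824 CPM), macrophages (819 and 844), fibroblasts (530 and 380), liver (269 and 239) and kidney (52.9 and 75.6) had lower sums. Between the libraries, 1 of 7 tested cortex and 1 of 7 tested endothelial markers were called higher in replicate 2. Called lower were 2 of 8 tested medulla, 1 of 6 fibroblast and 2 of 6 liver markers. Of all genes tested, 9.55% were called in either direction. In bulk tissue, fewer cells of a type and less RNA per cell cannot be told apart.

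The 11-beta-hydroxysteroid dehydrogenases switch glucocorticoids between the active hormone and its inactive 11-keto form. HSD11B1 works mainly as a reductase that regenerates active hormone, fed with NADPH inside the endoplasmic reticulum by hexose-6-phosphate dehydrogenase, the product of H6pd, and HSD11B2 oxidises the hormone and is best known for protecting the mineralocorticoid receptor in the kidney. The 5-alpha-reductases reduce testosterone, progesterone and corticosteroids. Despite the shared name, several 17-beta-hydroxysteroid dehydrogenases act chiefly on fatty acids, in peroxisomes, mitochondria, the endoplasmic reticulum or on lipid droplets.

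The sequences at 5 places carry the transcript differences described below. Each line gives mm10 bases taken from M21 transcripts, 5′ to 3′ on the strand of the gene, with the bases of the exon shared by the forms in capitals. The Srd5a2 lines show exon 2 (chromosome 17, minus strand, capitals 74027128 to 74027141) joined to its own exon 1, to an exon of the neighbouring non-coding gene CT025731.4 as in the new models, or to CT025731.1 as M21 already annotates.
Srd5a2 exon 1 to exon 2: cattacttccacagGACATTTATTTACT
CT025731.4 exon to Srd5a2 exon 2: aaggtacaaatgagGACATTTATTTACT
CT025731.1 to Srd5a2 exon 2: actgtccacgagagGACATTTATTTACT
The Hsd11b1 lines (chromosome 1, minus strand, capitals 193242275 to 193242288) show the distal first exon spliced to the next exon, and the same place inside the unbroken proximal first exon.
Hsd11b1 distal first exon: tctgaagcctcaagGGCGCCCTGAGCCA
Hsd11b1 proximal first exon: cgtgtgtcctacagGGCGCCCTGAGCCA
The H6pd lines (chromosome 4, minus strand, capitals 149996368 to 149996381) show the first exons of H6pd-202 and H6pd-201, joined to the same second exon.
H6pd-202 first exon: ctttgcctgcactgGCACACAGGCATTT
H6pd-201 first exon: acgagcgagatgaaGCACACAGGCATTT
The Hsd17b8 lines (chromosome 17, minus strand, capitals 34027827 to 34027840) show the short and the long form of its first exon.
Hsd17b8 short first exon: ggccctggtcacagGTGCGGGTAGCGGC
Hsd17b8 long first exon: ggttccctctcaggGTGCGGGTAGCGGC
In the last 2 lines the capitals mark instead the first and the last 10 bases of a 59-base stretch that most Srd5a2 reads lack in the last exon.
Srd5a2 start of the missing stretch: tcatatgcagGTTCTAGATT
Srd5a2 end of the missing stretch: GTATGTTGAGggtcatatag

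Together the 10 genes held 1476 reads in replicate 1 and 627 in replicate 2. Their summed level was 1220 CPM in replicate 1 and 1247 CPM in replicate 2, a mean of 1234 ± 19.1 CPM (SD, n = 2). Of the 10 genes, 8 had at least 3 reads in each library, and Hsd17b11 and Hsd11b2 did not. Because a long read stands for 1 molecule, CPM were not divided by length. By mean CPM, Hsd17b4 came first (285 CPM), followed by Srd5a2 (244 CPM) and Hsd17b8 (174 CPM). The ranges of Hsd17b4 and Srd5a2 overlapped, and those of Srd5a2 and Hsd17b8 did not. H6pd, at 41.3 and 119 CPM, overlapped Hsd11b1, at 114 and 157 CPM. Levels were also set out as CPM per kb of the main annotated transcript, which places long transcripts lower, so that the order differs.

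**Figure D1:**
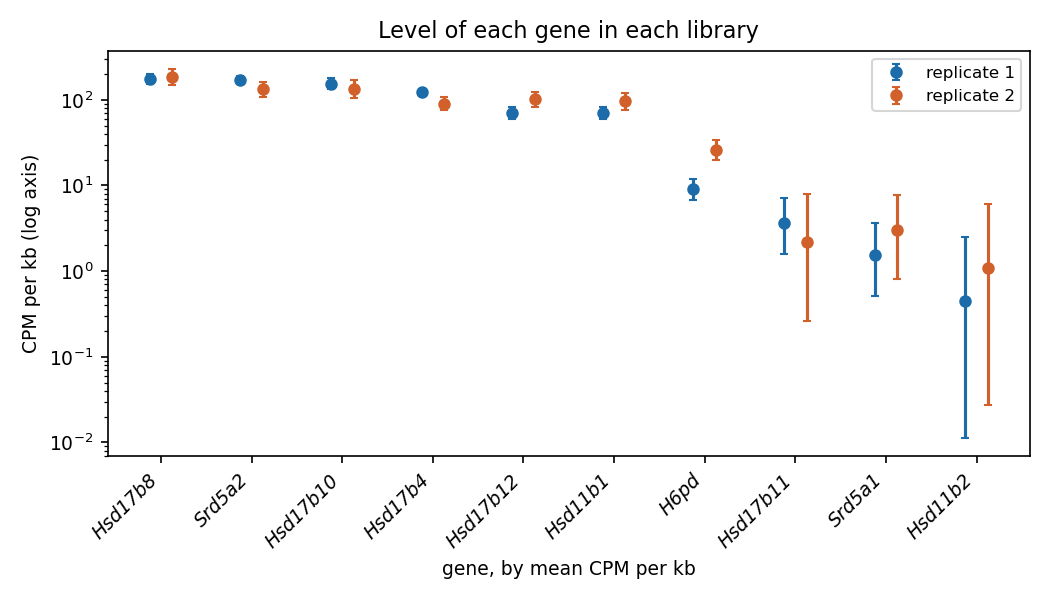
Level of each gene as CPM per kb of its main annotated transcript (log axis), in replicate 1 and replicate 2, with exact Poisson 95% intervals that cover counting error only. Genes run from the highest mean, Hsd17b8 at 180 CPM per kb, to the lowest, Hsd11b2 at 0.765 CPM per kb, with a gap between H6pd and the last 3 genes.

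Per kb, Hsd17b8 had the highest level, with 175 and 186 CPM per kb, followed by Srd5a2 with 172 and 133 CPM per kb. Hsd17b10, with 155 and 134 CPM per kb, overlapped Srd5a2 but lay above Hsd17b4, at 122 and 90.4 CPM per kb. Hsd17b4, Hsd17b12 (70.0 and 101 CPM per kb) and Hsd11b1 (70.3 and 96.8 CPM per kb) overlapped their neighbours in this order. H6pd lay below all of these at 9.04 and 26.1 CPM per kb, and above Hsd17b11 (3.62 and 2.18 CPM per kb) and Srd5a1 (1.56 and 3.01 CPM per kb), which overlapped each other. Hsd11b2 came last at 0.449 and 1.08 CPM per kb. The place of Srd5a2 depended on its length: with the 3611 bases of its main new model in place of the 1605 bases of Srd5a2-201, its mean was 67.6 ± 12.2 CPM per kb (SD, n = 2) instead of 152 ± 27.5 CPM per kb.

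Between the libraries, 8 of the 10 genes had at least 10 reads in all and were tested. H6pd was called higher in replicate 2, and none of the other tested members was called in either direction by Fisher's exact test per gene with Benjamini-Hochberg adjustment over 10170 genes and a minimum of 2-fold. Of all genes tested, 9.55% were called, and 5.96% were called higher in replicate 2. The median log2 ratio of the 8 tested members, replicate 2 over replicate 1, was -0.05, beside -0.06 over all genes tested. Without the 2-fold minimum, Hsd17b4 and Hsd17b12 also passed, beside 17.9% of all genes.

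**Figure D2:**
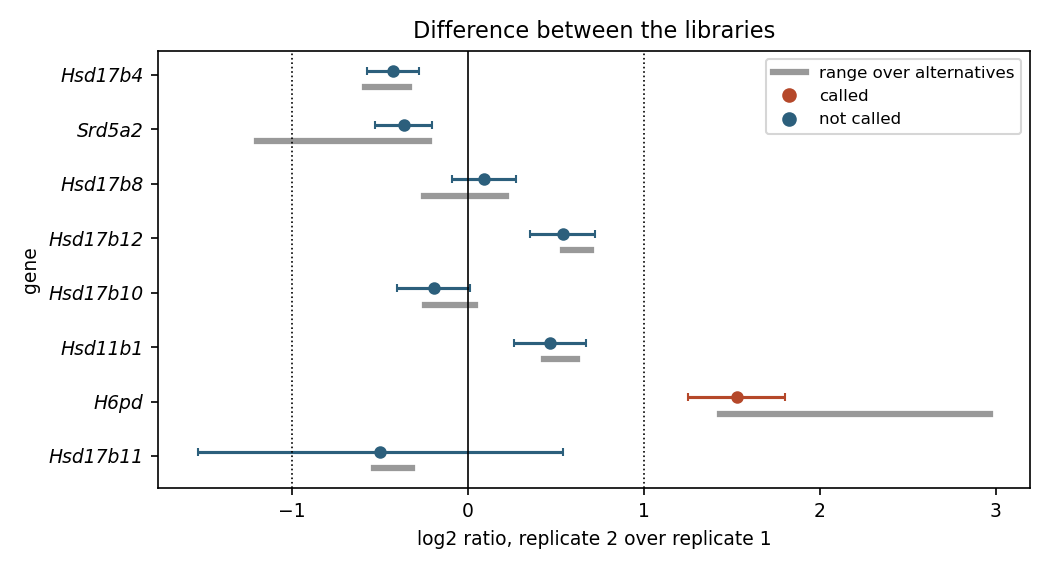
Log2 ratio of replicate 2 over replicate 1 for the 8 tested genes, with its counting SE (horizontal bars around points), and in grey the range over the alternative settings; dotted lines mark 2-fold. H6pd, at 1.53, lies beyond 2-fold in all its settings, and Srd5a2 does so on the lower side with annotated transcripts alone, at -1.20.

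Hsd11b1 (ENSMUSG00000016194.14, chromosome 1, 193221634 to 193264075, minus strand) had 138 reads in replicate 1 and 79 in replicate 2, or 114 and 157 CPM. The values of 135.6 ± 30.5 CPM (SD, n = 2) differed by a log2 ratio of 0.47 with a counting SE of 0.20, and the difference was not called (Fisher's exact test, adjusted p = 0.109, 0.0286 to 0.175 over the alternatives). The protein-coding transcripts Hsd11b1-201 and Hsd11b1-205 carry the same 292-codon reading frame, which starts in bases that both hold, and differ in the first exon and the 5′ UTR. Hsd11b1-201 had 57 and 40 reads and Hsd11b1-205 had 64 and 33 reads. Both forms were thus abundant in both libraries.

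The distal first exon of Hsd11b1 (193263948 to 193264075) lies 21319 bases upstream of the annotated start of the proximal one. Of spliced reads that were not incomplete splice matches, it opened 70 of 128 in replicate 1 (54.7%, exact Clopper-Pearson 95% interval 45.7% to 63.5%) and 38 of 79 in replicate 2 (48.1%, 36.7% to 59.6%). The proximal first exon opened 58 of 128 (45.3%) and 40 of 79 (50.6%). The intervals of the libraries overlapped for both exons, and in replicate 1 the distal and in replicate 2 the proximal exon was slightly ahead. The shared annotated join out of the distal exon was held by 64 and 35 reads, and joins from the distal exon to 2 unannotated acceptors inside the proximal first exon by 2 and 1 reads and by 3 and 2 reads.

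Hsd11b1 reads were mostly complete. The number of reads across each of the 5 joins of Hsd11b1-201 ran from 128 at the 5′ end to 135 at the 3′ end in replicate 1, and from 79 to 79 in replicate 2. Incomplete splice matches, whose introns are a subset of an annotated transcript's, made up 10 of 138 reads in replicate 1 (7.25%) and 0 of 79 in replicate 2, where a count of 0 allows up to 4.56% by the exact interval. The difference was not called (Fisher's exact test, adjusted p = 0.0626), and the median share over the 2098 genes tested (those with 50 or more reads per library) was also lower in replicate 2, at 2.97% against 5.94%. Hsd11b1 lies inside Lamb3, a laminin gene on the opposite strand, which had 3 and 0 reads.

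H6pd (ENSMUSG00000028980.14, chromosome 4, 149979475 to 150009023, minus strand) had 50 reads in replicate 1 and 60 in replicate 2, although replicate 2 was the shallower library. Its level was 41.3 CPM (30.7 to 54.5, exact Poisson 95% interval) in replicate 1 and 119 CPM (91.1 to 154) in replicate 2, and the intervals did not overlap. The mean was 80.4 ± 55.2 CPM (SD, n = 2), and replicate 2 was 2.89-fold higher, a log2 ratio of 1.53 with a counting SE of 0.275 (Fisher's exact test, adjusted p = 1.22e-06, and 8.48e-12 to 6.57e-06 over the alternatives). Among the genes tested, 5.96% were called in this direction. Cortex markers, at 63604 and 83039 CPM, and medulla markers, at 12563 and 7761 CPM, also moved between the libraries, and their part in this difference was not tested.

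The kind of H6pd read differed as well. In replicate 1, 30 of 50 reads (60.0%) were of the genomic class, which matches no spliced transcript, against 8 of 60 (13.3%) in replicate 2. The main genomic model of replicate 1, with 29 reads, covers 149979475 to 149980925 and lies inside the last exon beyond the end of the coding sequence at 149981561. The genomic model of replicate 2, with 8 reads, covers 149979475 to 149981600. With the genomic class left out of the gene and of the library totals, H6pd stood at 17.3 and 106 CPM, so the difference between the libraries was larger without these reads.

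Annotated H6pd transcripts held 12 of 50 reads in replicate 1 and 43 of 60 in replicate 2. H6pd-202, the main transcript, took 6 of 50 reads (12.0%, 4.53% to 24.3%) in replicate 1 and 29 of 60 (48.3%, 35.2% to 61.6%) in replicate 2. This share was called higher in replicate 2 (Fisher's exact test over 2098 genes, adjusted p = 0.000682), with calls in 16.4% of all genes tested. Over reads that were not genomic the share was 6 of 20 (30.0%, 11.9% to 54.3%) and 29 of 52 (55.8%, 41.3% to 69.5%), with overlapping intervals. The replicate 1 count is then below the minimum of 50 reads, so that no test was made.

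Reads of H6pd opened mainly with the first exons of H6pd-202 and H6pd-201. The first exon of H6pd-202 (150003032 to 150003130) opened 9 of 17 spliced reads in replicate 1 (52.9%) and 29 of 49 in replicate 2 (59.2%). That of H6pd-201 (150008751 to 150009023), whose donor lies 5719 bases upstream of the other, opened 6 of 17 (35.3%) and 16 of 49 (32.7%). The shares of the libraries differed by less than their counting intervals. H6pd-201 starts its reading frame 5 bases before the end of its own first exon and encodes 797 codons, 8 more than H6pd-202, whose frame starts in exon 2. A further first exon, whose join to exon 2 is also annotated (150001150 to 150001290), opened 1 of 17 and 3 of 49 reads.

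The promoter window of H6pd in RefSeq (GRCm38.p6) belongs to the start nearest that of H6pd-202. Its bases upstream of the RefSeq start, chr4:150003237-150003486 on the minus strand, are shown because the first exon of H6pd-202, which begins downstream of that start, was in use in both libraries. Matches to the motifs searched are in capitals.
H6pd promoter: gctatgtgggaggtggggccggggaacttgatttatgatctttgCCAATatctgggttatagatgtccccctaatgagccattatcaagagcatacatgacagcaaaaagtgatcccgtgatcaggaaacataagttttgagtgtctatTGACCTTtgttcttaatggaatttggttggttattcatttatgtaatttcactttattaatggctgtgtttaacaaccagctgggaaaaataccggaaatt
The motifs were searched on both strands: AAGGTCA, a sequence bound by the steroidogenic factor NR5A1, the TATA box TATAAA, the CCAAT box and the GC box GGGCGG. Promoter windows of 300 bases were matched for 8 of the 10 genes. AAGGTCA occurred in 1 of these 8, H6pd, where it lies on the opposite strand, and in 4.72% of all 32851 windows of that length. CCAAT occurred in 7 of 8 and in 37.4% of all windows, GGGCGG in 5 of 8 and in 35.7%, and TATAAA in 0 of 8 and in 13.6%. The H6pd window held 3 CpG dinucleotides and 39.3% G and C, whereas the Hsd17b12 window held 23 CpG and the Srd5a1 window 24. A match describes letters in a window and shows no binding.

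Hsd11b2 (ENSMUSG00000031891.6, chromosome 8, 105518755 to 105523988, plus strand) had 1 read in each library, or 0.827 CPM in replicate 1 and 1.99 CPM in replicate 2. Both reads matched the annotated Hsd11b2-201 across all 4 joins. Both counts lie under the floor of 3 reads, so that no fold is given. Of 8 kidney markers, 5 had a read in either library, and Slc12a1, Slc12a3 and Scnn1g, which define tubule segments, had 0 reads in both. Cyp4b1 held 58 and 36 reads of that list, and the other 4 markers with a read held at most 4 in a library.

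Steroid receptors and genes that supply NADPH or glucose-6-phosphate were read in the same way. Of 6 steroid receptors, 4 had a read and 3 were tested. None of the 3 was called, beside 9.55% of all genes called. Among those tested, Nr3c1, the glucocorticoid receptor, had 22 and 4 reads and Esr1, the oestrogen receptor alpha, 15 and 5. Nr3c2, the mineralocorticoid receptor, had 4 and 1 reads, too few for a test. Esr2 and Pgr had 0 reads in both. Of 8 genes that supply NADPH or glucose-6-phosphate, all were tested, 1 was called higher in replicate 2 and none lower, beside 9.55% of all genes called. The called gene was G6pdx, the cytosolic counterpart of H6pd in the pentose phosphate pathway, at 57.1 and 127 CPM (log2 ratio 1.16 and, by Fisher's exact test, adjusted p = 9.95e-05).

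Among the most abundant genes of that list, Me1, the malic enzyme, had 1178 and 1241 CPM, Idh1 1353 and 694 CPM, Pgd 385 and 505 CPM and Idh2 169 and 171 CPM. Idh1 missed the 2-fold minimum and was not called. The list's median log2 ratio was 0.24, beside -0.06 over all genes tested.

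Srd5a2 (ENSMUSG00000038541.8, chromosome 17, 74016955 to 74047916 in M21, minus strand), known as the 5-alpha-reductase of the male reproductive tract, was read 333 times in replicate 1 and 107 times in replicate 2. Its level was 275 and 213 CPM, or 244.1 ± 44.2 CPM (SD, n = 2), a log2 ratio of -0.37 with a counting SE of 0.16, which was not called (Fisher's exact test, adjusted p = 0.0953, and 0.00168 to 0.413 over the alternatives). With annotated transcripts alone it was called lower in replicate 2, at a log2 ratio of -1.20 (adjusted p = 0.0207), on 64 and 12 reads. Srd5a1 (ENSMUSG00000021594.11, chromosome 13, 69573449 to 69611442, minus strand), the other 5-alpha-reductase, had 5 and 4 reads, or 4.13 and 7.96 CPM. Per kb of annotated transcript, Srd5a2 was at 172 and 133 and Srd5a1 at 1.56 and 3.01 CPM per kb, and their ranges did not overlap.

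Of the Srd5a1 reads, 2 and 3 matched the 5-exon Srd5a1-202 across all its joins. The other 3 and 1 were unspliced genomic reads. Srd5a1 lies inside Nsun2, a gene of the opposite strand with 240 and 102 reads, and how the authors assigned the strand of reads is not given in the sources used here, so that the unspliced reads are uncertain.

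The annotated transcript was not the main form of Srd5a2. Srd5a2-201 held 64 of 333 reads (19.2%) in replicate 1 and 12 of 107 (11.2%) in replicate 2. The main form was a chain of introns absent from M21, with 200 of 333 reads (60.1%, 54.6% to 65.4%) and 56 of 107 (52.3%, 42.5% to 62.1%). Its share was not called between the libraries (Fisher's exact test, adjusted p = 0.410). Among the 2098 genes tested for this share, 3.67% had a main transcript absent from M21. Of the 7 members tested in this way, Srd5a2 was the only one.

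**Figure D3:**
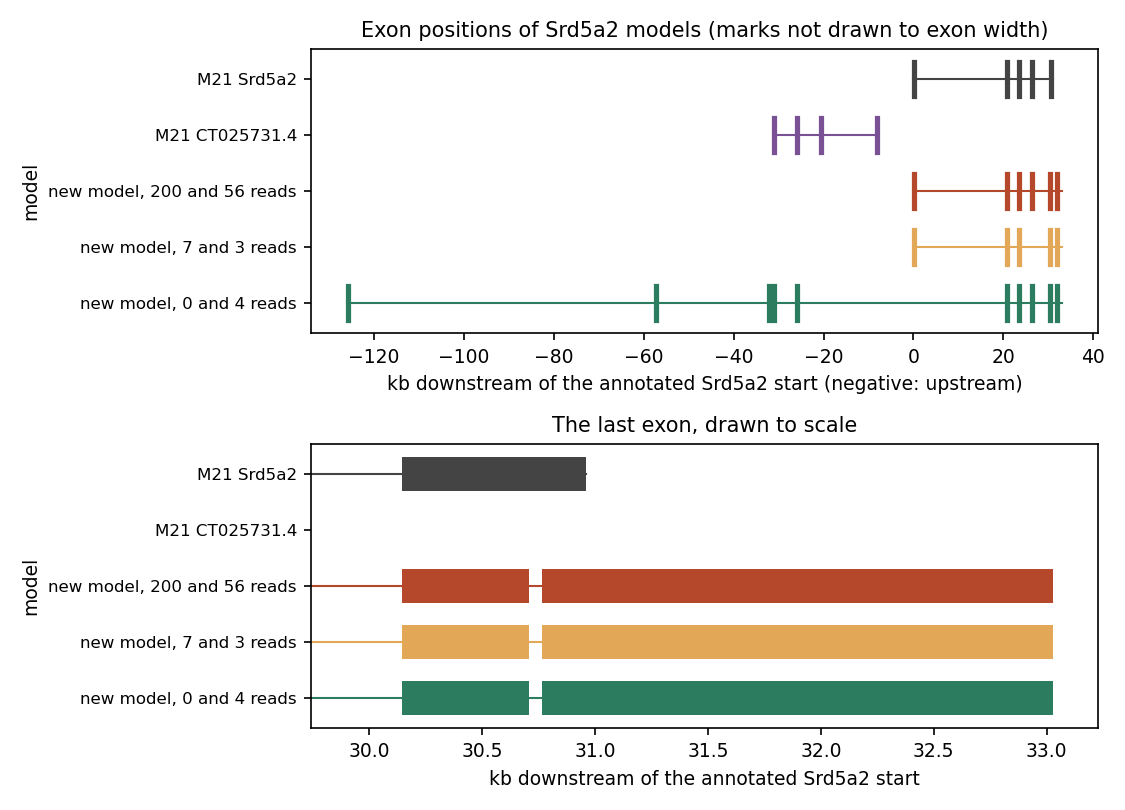
Exon positions of M21 transcripts and of 3 new Srd5a2 models, in kb downstream of the annotated start; read counts are for replicate 1 and replicate 2. In the upper panel marks stand at exon centres and are not drawn to width, and in the lower panel the last exon is to scale, with the 59-base break and the 2064 bases beyond the M21 end in all 3 new models.

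The new chain differed from Srd5a2-201 in the last exon. It lacked the 59 bases from 74017151 to 74017209, which lie beyond the end of the coding sequence at 74017709 and thus in the 3′ UTR. Of the reads that could show it, 235 of 310 in replicate 1 (75.8%, 70.6% to 80.5%) and 76 of 91 in replicate 2 (83.5%, 74.3% to 90.5%) lacked this stretch, and the intervals overlapped. On the strand of the gene the stretch begins with GT and ends with AG, the letters at the ends of most introns, as the last lines among the sequences show. It holds 27.1% G and C, and neither end is an annotated splice site. Across its edges 3 bases repeat, so that its exact position could shift by as many, and the letters at its ends would change with it. Whether the stretch is removed as an intron was not tested. Among reads that join exon 1 to exon 2, 208 of 273 (76.2%) and 59 of 72 (81.9%) lacked it. Among models with an exon upstream of exon 1, 12 of 22 reads (54.5%, 32.2% to 75.6%) and 16 of 17 (94.1%, 71.3% to 99.9%) lacked it, with intervals that overlapped narrowly.

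Most Srd5a2 reads also lay in models that end beyond M21. The gene end in RefSeq, 74014891, lies 2064 bases past the M21 end, and the main new chain ends within 1 base of it. Models with that end held 217 of 333 reads (65.2%, 59.8% to 70.3%) and 69 of 107 (64.5%, 54.6% to 73.5%). A model's end is 1 position given by the authors for all its reads, and reads assigned to Srd5a2-201 take the annotated end whatever their own. The main chain is 3611 bases long, whereas Srd5a2-201 is 1605 bases long.

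A further new model left out exon 4 (74021384 to 74021534, 151 bases, which is not a multiple of 3). The join that skips it was held by 9 of 333 reads in replicate 1 (2.70%) and 4 of 107 in replicate 2 (3.74%). The most abundant model with this join had 7 and 3 reads and also lacked the 59 bases in the last exon. The shares differed by less than their counting intervals.

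The 5′ part of Srd5a2 reads varied more between the libraries. Exon 2 was joined to the annotated exon 1 in 274 of 306 reads in replicate 1 (89.5%, 85.6% to 92.7%) and 72 of 91 in replicate 2 (79.1%, 69.3% to 86.9%), and these intervals overlapped narrowly. Models with an exon upstream of exon 1 held 42 of 333 reads (12.6%, 9.24% to 16.7%) and 32 of 107 (29.9%, 21.4% to 39.5%), and those intervals did not overlap. This difference was seen in the data first and was not tested. Exon 1 holds 281 of the 762 coding bases of Srd5a2-201 (36.9%), which reads that bypass it lack.

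Most upstream reads began far away. The outermost exon was not annotated, and models that reach it held 35 of 333 and 30 of 107 reads. Its nearer edge was at 74173619, which lies 125703 bases upstream of exon 1, in 17 and 20 reads. It was at 74173773 in 18 and 10 reads. Another exon outside M21, at 74105178, was held by 35 and 22 reads. The next exons have edges that M21 annotates in CT025731.1 or CT025731.4, non-coding genes of the same strand. Those edges lie at 74080047 (29 and 24 reads), at 74078747 (21 and 16) or 74078763 (16 and 13) of the same exon, and at 74073743 (31 and 24).

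Part of the upstream reads ran into Srd5a2 and part did not. Exon 2 of Srd5a2 followed upstream exons in 25 reads of replicate 1 (7.51% of all reads) and 18 of replicate 2 (16.8%). The join from the CT025731.4 exon at 74073743 into exon 2, shown in the second sequence line, was held by 12 of 306 (3.92%, 2.04% to 6.75%) and 13 of 91 reads (14.3%, 7.83% to 23.2%) and is not annotated. These intervals did not overlap either, and this difference was not tested. The annotated join of CT025731.1 into exon 2, the third line, was held by 5 and 0 reads. A further 17 and 14 upstream reads had no exon 2, of which 11 and 12 ended in the last exon of CT025731.4 (74055731 to 74056420). The deposited tables count all of these as Srd5a2. Without the models that hold an upstream exon, Srd5a2 had 291 and 75 reads, a log2 ratio of -0.68 (adjusted p = 0.00168 by Fisher's exact test) that still missed the 2-fold minimum.

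Srd5a2 also had the most varied models of the 10 genes. It was read as 83 models, counted by chain and class, of which 66 had a single read. A chain classed differently in the libraries counts once per class, so that distinct chains are fewer. At least 3 reads in both libraries were held by 3 models. Those 3 were the new main chain, Srd5a2-201 and the model without exon 4. The bases upstream of both the M21 and the RefSeq start of exon 1, chr17:74047917-74048110 of GRCm38.p6 on the minus strand, are shown because exon 1 opened most reads, with a GGGCGG match in capitals.
Srd5a2 promoter: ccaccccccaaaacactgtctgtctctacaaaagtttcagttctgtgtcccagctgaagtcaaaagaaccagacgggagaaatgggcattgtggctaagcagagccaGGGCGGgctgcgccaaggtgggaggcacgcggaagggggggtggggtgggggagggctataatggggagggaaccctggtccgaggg

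Hsd17b4 (ENSMUSG00000024507.6, chromosome 18, 50128201 to 50196269, plus strand) encodes the D-bifunctional protein, which catalyses consecutive steps of peroxisomal beta-oxidation. It had 396 and 122 reads, or 327 and 243 CPM, with a mean of 285 ± 59.9 CPM (SD, n = 2). Its log2 ratio of -0.43 with a counting SE of 0.149 passed the adjusted threshold but not the 2-fold minimum (Fisher's exact test, adjusted p = 0.0250, and 0.00102 to 0.108 over the alternatives). The 24-exon Hsd17b4-201 held 372 of 396 reads (93.9%) and 110 of 122 (90.2%). Reads across its 23 joins ran from 379 at the 5′ end to 392 at the 3′ end in replicate 1 and from 116 to 122 in replicate 2, so that nearly all reads spanned the chain.

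A new Hsd17b4 chain had 4 and 6 reads. It leaves out 1 small exon and uses an acceptor outside M21 (intron 50140400 to 50142571), and its model is 1 base shorter than that of Hsd17b4-201. Of the 14 genes listed as partners of Hsd17b4 in the peroxisome, 13 were tested. Of these, 1 was called higher in replicate 2 and none lower, beside 9.55% of all genes called. The called gene was Decr2, a peroxisomal dienoyl-CoA reductase, at 23.2 and 49.7 CPM (Fisher's exact test, adjusted p = 0.0378). Scp2, the thiolase and carrier, had 547 and 535 CPM, Pex5, the import receptor, 409 and 318 CPM, and Acaa1a 350 and 251 CPM. The median log2 ratio of the list was 0.35.

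Hsd17b8, listed as H2-Ke6 (ENSMUSG00000073422.11, chromosome 17, 34026033 to 34028060, minus strand), encodes a subunit of the ketoacyl reductase of mitochondrial fatty acid synthesis. It had 204 and 90 reads, or 169 and 179 CPM, with a mean of 173.9 ± 7.34 CPM (SD, n = 2), the smallest spread relative to the mean of the members with at least 3 reads in each library. The difference was not called (Fisher's exact test, adjusted p = 0.862). H2-Ke6-201 held 147 of 204 reads (72.1%) and 65 of 90 (72.2%). Gm20427, a transcript of the same strand that overlaps it, had 138 and 29 reads and shares joins with it, so that the split of reads between these genes is uncertain. With the reads of Gm20427 added, the log2 ratio of Hsd17b8 turned from 0.09 to -0.25.

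Alternative splicing of Hsd17b8 recurred in both libraries. The long form of the first exon, which adds 21 bases (7 codons) before the donor, opened 22 of 186 spliced reads (11.8%) and 9 of 83 (10.8%), and the short form 161 of 186 (86.6%) and 73 of 83 (88.0%). Most long-form reads belonged to a new combination of annotated sites with 20 and 8 reads. Another new model, with 5 and 3 reads, and the annotated H2-Ke6-212, with 3 and 3 reads, also passed 3 reads in both libraries. The join that skips a 43-base exon had 7 and 4 reads.

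Of the 8 genes listed with Hsd17b8 in mitochondrial fatty acid synthesis, 7 were tested and none was called, beside 9.55% of all genes called. Ndufab1, the acyl carrier protein, had 294 and 219 CPM, Mecr, the enoyl reductase, 106 and 115 CPM, Mcat 88.5 and 65.7 CPM and Lias, the lipoyl synthase, 52.1 and 41.8 CPM. The list's median log2 ratio was -0.30.

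Hsd17b10 (ENSMUSG00000025260.10, chromosome X, 152001845 to 152004442, plus strand) encodes a mitochondrial dehydrogenase of isoleucine breakdown that is also a subunit of mitochondrial RNase P. It had 180 and 65 reads, or 149 and 129 CPM, with a mean of 139.1 ± 13.8 CPM (SD, n = 2), and the difference was not called (Fisher's exact test, adjusted p = 0.627). Hsd17b10-201 held 169 of 180 reads (93.9%) and 64 of 65 (98.5%), and its replicate 2 share was the highest of the 7 members tested. Hsd17b10-204, which begins inside the first intron of Hsd17b10-201, had 4 and 0 reads. Reads across the 5 joins ran from 170 to 176 and from 65 to 65.

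Of 10 genes listed with it in RNase P and isoleucine breakdown, 9 were tested and 1 was called, beside 9.55% of all genes called. Acadsb, the short branched-chain acyl-CoA dehydrogenase of the isoleucine pathway, was called higher in replicate 2 at 68.6 and 177 CPM (log2 ratio 1.37 and, by Fisher's exact test, adjusted p = 3.26e-08), and none was called lower. Echs1, the enoyl-CoA hydratase, had 870 and 792 CPM, Acat1, the thiolase, 273 and 344 CPM and Bckdha 233 and 215 CPM. The list's median log2 ratio was -0.11.

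Hsd17b12 (ENSMUSG00000027195.10, chromosome 2, 94032689 to 94157964, minus strand) encodes the ketoacyl reductase of fatty acid elongation in the endoplasmic reticulum. It had 161 and 97 reads, or 133 and 193 CPM, with a mean of 163.0 ± 42.3 CPM (SD, n = 2). Its log2 ratio of 0.54 with a counting SE of 0.185 passed the adjusted threshold but not the 2-fold minimum (Fisher's exact test, adjusted p = 0.0316, and 0.00317 to 0.0519 over the alternatives). The 11-exon Hsd17b12-201 took 137 of 161 reads (85.1%, 78.6% to 90.2%) in replicate 1 and 94 of 97 (96.9%, 91.2% to 99.4%) in replicate 2, and this share was called (Fisher's exact test, adjusted p = 0.0166), as in 16.4% of all genes tested.

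The difference in share rested on 15 genomic reads of replicate 1, against 0 in replicate 2. Of these, 14 lay in a model 1 base long at 94032702, near the 3′ end of the gene, which gives no transcript structure. Without the genomic class the shares differed by 3.07 points and the call was lost (Fisher's exact test, adjusted p = 0.709). Reads across the 10 joins ran from 141 to 146 in replicate 1 and from 94 to 95 in replicate 2.

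Of 12 genes listed with Hsd17b12 in fatty acid elongation, 7 were tested and 1 was called, beside 9.55% of all genes called. Elovl3, an elongase of very long chains, was called higher in replicate 2 at 63.7 and 191 CPM (log2 ratio 1.58 and, by Fisher's exact test, adjusted p = 5.80e-11), and none was called lower. Elovl5 had 1263 and 975 CPM, Tecr, which catalyses the last reduction of the cycle, 664 and 579 CPM, and Hacd3, a dehydratase of the cycle, 459 and 440 CPM. The list's median log2 ratio was -0.06, equal to that of all genes tested to 2 decimals.

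Hsd17b11 (ENSMUSG00000029311.16, chromosome 5, 103989762 to 104021919, minus strand) encodes a lipid droplet dehydrogenase. It had 8 and 2 reads, or 6.61 and 3.98 CPM, and no call (Fisher's exact test, adjusted p = 0.911). All 8 reads of replicate 1 lay in 1 unspliced model of the last exon (103989762 to 103990594), whereas the 2 reads of replicate 2 were spliced, 1 of them annotated. No read of replicate 1 therefore crossed a join of this gene. At these counts a 2-fold difference was not detectable.

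Of 13 lipid droplet genes listed with Hsd17b11, 12 were tested and 1 was called, beside 9.55% of all genes called. Lipe, the hormone-sensitive lipase, was called higher in replicate 2 at 195 and 404 CPM (log2 ratio 1.05 and, by Fisher's exact test, adjusted p = 7.32e-12). Plin2, a droplet coat protein, had 602 and 674 CPM, Pnpla2, the triglyceride lipase, 401 and 637 CPM, Cidea 417 and 593 CPM and Cidec 360 and 593 CPM. The list's median log2 ratio was 0.27. Plin1 and Cidec are also adipocyte markers, and that list summed to 8802 and 9587 CPM. Of its 10 genes, 0 were called, beside the same 9.55% of all genes. The part of fat in these values was not tested.

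**Figure D4:**
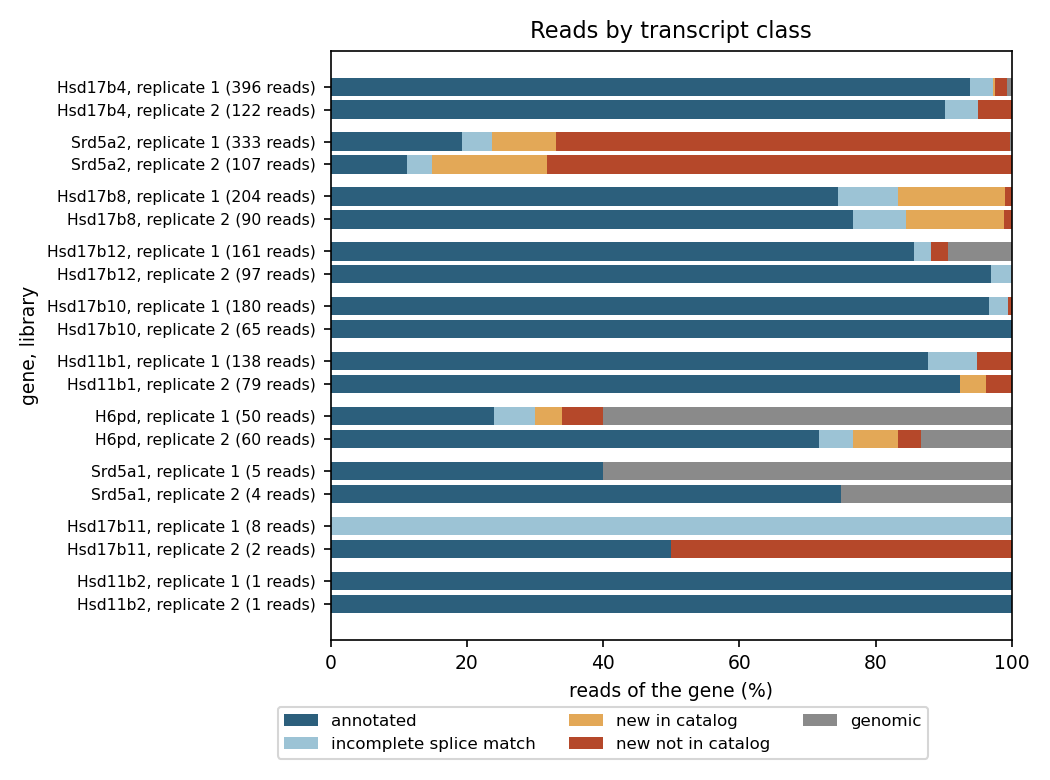
Reads of each gene by the authors' transcript class, in percent of its reads, for both libraries; the total is given beside each bar. Annotated reads make up most of the bars of Hsd17b4, Hsd17b8, Hsd17b10, Hsd17b12 and Hsd11b1, models new not in catalog lead in Srd5a2 at 66.7% and 68.2%, and genomic reads lead in H6pd of replicate 1 at 60.0%.

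Across members, annotated transcripts held 74.5% to 96.7% of reads in replicate 1 and at least 76.7% in replicate 2 for Hsd17b4, Hsd17b8, Hsd17b10, Hsd17b12 and Hsd11b1. Srd5a2 stood below them with 19.2% and 11.2%, and so did H6pd, with 24.0% and 71.7%. The share of incomplete splice matches was called in 0 of the 7 members tested, beside 16.4% of all genes called. New models with at least 3 reads in both libraries were found in Srd5a2 (2), Hsd17b8 (2) and Hsd17b4 (1).

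The other members of these families set the scale. Of 15 further dehydrogenase and reductase genes, 13 had a read and 8 were tested. Of the 8, 1 was called lower in replicate 2 and none higher, beside 9.55% of all genes called. Hsd17b7, which works in cholesterol synthesis, was the called gene at 118 and 53.7 CPM (log2 ratio -1.12 and, by Fisher's exact test, adjusted p = 0.000844). Hsd3b1, which makes progesterone from pregnenolone, had 7253 and 8019 CPM, Hsdl1 147 and 131 CPM and Hsd3b7 137 and 105 CPM. Of 13 genes of steroid synthesis, 12 were tested and 1 was called, beside the same 9.55% of all genes. The called gene, Cyp21a1, was higher in replicate 2 at 14022 and 28073 CPM. Cyp11a1 had 20228 and 19861 CPM, Cyp11b1 11523 and 15912 CPM and Star 9388 and 9876 CPM.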

How the data were processed

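The authors deposited, per library, whole-number counts of reads per transcript model and the matching models, on mm10 with GENCODE M21 per the deposited readme files. Version 3.0 of an ENCODE long-read pipeline document is cited per the labels' protocols. Of the aligner and the platform, the sources used here name none. Each model has a class given by the authors: annotated, incomplete splice match, new in catalog, new not in catalog, or genomic. Models of both libraries were matched by strand and intron coordinates, and in the counts of members' models also by class.

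Counts were summed per gene over all classes and scaled to CPM over reads of annotated nuclear genes, 94.7% and 96.6% of all reads. Replicate 2 was compared with replicate 1 by two-sided Fisher's exact tests (SciPy 1.17.1) with Benjamini-Hochberg adjustment over all genes with at least 10 reads. A call needed an adjusted p under 0.05 and a 2-fold difference. Log2 ratios used 0.5 added reads. Shares of the main transcript and of incomplete reads were tested where both libraries held 50 or more reads of the gene, with a call at 10 percentage points. The main transcript is the annotated or new (in or not in catalog) chain with most reads over both libraries. Intervals are 95% and, like the floor of 3 reads, cover counting error only. The tests were tried on simulated data that held counting error only. That trial therefore does not cover variation between libraries beyond counting.

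Sequences came from M21 transcripts and RefSeq promoter windows (GRCm38.p6, the build of mm10). Hsd11b2 and Hsd17b4 have no window here. Other settings tried were TMM scaling (edgeR 4.0.16), the size factors of DESeq2 1.42.0, changed minimums and pseudocounts, fewer classes, length and GC content, and thresholds. All members were named. Of each pathway list, the 4 genes with the highest mean CPM and every called gene were named, except for some genes that are not reported here. Cell type markers are given as sums and counts. The members and lists were chosen with earlier results of these data known.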

Additional observations from a re-analysis of the deposited data

Results flagged for a closer look

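The deposited tables also hold new genes, on either strand, within the span of the members' models, and those with more than 3 reads are given here. In the span upstream of Srd5a2, a new gene of the opposite strand had 49 reads in replicate 1, or 40.5 CPM, between 74140817 and 74141000 of chromosome 17. In replicate 2 a new gene of the opposite strand had 17 reads, or 33.8 CPM, in models that spread from 74119143 to 74179002. Both lie between the outermost upstream exon of Srd5a2 and its exon 1, or overlap that exon. On the strand of Srd5a2, an intergenic new gene with 6 reads in replicate 1 covered 74014891 to 74016955, the stretch between the RefSeq end and the M21 end of Srd5a2, so that the deposited tables hold some reads of this stretch outside the gene. At Hsd17b12 a new antisense gene had 6 reads in replicate 1 (94150600 to 94156192 of chromosome 2). At Hsd17b11 one had 4 reads in replicate 1 (104011048 to 104011224 of chromosome 5). Near H6pd an intergenic new gene of the same strand had 4 reads in replicate 1 (149974965 to 149976448 of chromosome 4). The control level of such signals is not known, because there is no control sample.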

How the results depend on the processing

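H6pd remained called under all 9 alternatives for gene counts, with log2 ratios from 1.43 to 2.97. The other tested members kept their direction except Hsd17b10, which turned from -0.20 to 0.0397 once a trend with length and GC content was removed, and Hsd17b8, which turned to -0.25 with the reads of Gm20427 added (chosen after seeing the data). Members called numbered 1, but 2 with annotated transcripts alone (Srd5a2 was added) and 3 with no fold minimum, where calls over all genes rose from 971 to 1823. The main share was called in 345 genes, in 549 with at least 20 reads in each library and in 14 among annotated reads alone. Its 2 member calls fell to 0 with annotated reads alone and to 0 without the genomic class (chosen after seeing the data), where H6pd had too few reads for a test. The Hsd17b8 main share difference turned to -2.51 points with annotated reads alone. The incomplete share was called in 345 genes, and in 548 at 20 reads. With genomic reads added to it, 1 member in place of 0 was called, H6pd, at -47.7 points, and the Hsd17b12 difference turned to -8.71 points. The summed level of 1234 CPM became 1180 over all reads, 1132 with annotated transcripts alone and 776 per kb, and ranged from 1220 to 1247 CPM when either replicate was left out. The causes were not tested, beyond the change in reads or genes that each alternative makes itself. No paired analysis was possible because there is 1 group. Members with under 10 reads (Srd5a1, Hsd11b2) or 10 reads (Hsd17b11) are limited by depth.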
